A study of Mus musculus with 41 samples.

Results

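Skin carrying a P nanomesh seeded with endometrial mesenchymal stem/stromal cells (P+eMSC) was compared with skin of sham controls 6 weeks after surgery, over every target gene measured. By the labels the P+eMSC group held 7 mice and the sham group 6, together 13 of the 41 mice of the series, and each mouse gave 1 Ct (threshold cycle) for each of 54 target genes and for 18S ribosomal RNA (*Rn18s*). All mice of these groups were female NSG mice, an immunodeficient strain without mature T cells, B cells or natural killer cells, and all samples were labelled skin. The P nanomesh was electrospun from a copolymer of poly(L-lactic acid) and poly(ε-caprolactone), and eMSC, perivascular SUSD2+ cells of the human uterine lining labelled with a lentiviral mCherry reporter, were pipetted on top of it in pockets under the abdominal skin, where it was sutured to the fascia. Each eMSC line came from a single biopsy, and the labels did not say which line went into which mouse. What was done to the sham mice was not described further in the sources used here, and part of the animals had also served an earlier study. The assays were designed for mouse transcripts, and no statement was given on whether they also amplify human ones. The paper states that expression was measured in tissue close to the meshes, and that cells within the mesh could not be extracted.

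An implanted mesh sets off a foreign body response. Neutrophils and monocytes arrive along chemokine gradients, macrophages take over and may fuse on the polymer, and fibroblasts then lay down collagen under the control of TGF-beta while proteases and their inhibitors remodel the new matrix and growth factors guide capillaries into it. The sham controls were the calibrator of the study.

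The level of a gene was the 18S Ct minus its own Ct in the same mouse, a log2 scale on which 1 unit is a doubling. Levels are given below relative to the median of the 6 sham mice, so that the sham median is 0. The difference between the groups is given as the Hodges-Lehmann shift, the median of all differences between a P+eMSC mouse and a sham mouse, with its exact 95% interval, and each gene was tested over the 13 mice by an exact Mann-Whitney U test (two-sided). A gene was called at the methods' threshold of p = 0.0513, which is the exact p of 1 rank sum at this group size. The methods give this threshold for P against P+eMSC, and it was applied here to the comparison with sham. Below it the next reachable p is 0.0350 and above it 0.0734.

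Of the 54 genes, 52 were detected in all 13 mice. *Ccl4* gave no Ct in P+eMSC mouse 2210 and *Il10* gave none in sham mouse 123, and both values were left out. The skin label was set against the markers in the panel. All 5 collagen genes used as fibroblast markers were detected in every mouse, with a mean relative level between -1.65 and 2.83 in P+eMSC and between -0.77 and 1.98 in sham. The epithelial markers *Cdh1* and *Fgfr3* were also detected in every mouse, but their mean relative level reached from -5.45 to 3.09 in P+eMSC and from -3.95 to 2.45 in sham. The 4 macrophage and monocyte markers (*Mrc1*, *Arg1*, *Ccr1* and *Ccr2*) reached from -3.16 to 3.18 in P+eMSC and from -1.17 to 2.38 in sham. The lowest of these means, in mouse 2210, held -7.27 for *Arg1* against -1.43 for *Mrc1*, -1.75 for *Ccr1* and -2.21 for *Ccr2*. The panel held no keratin and no pan-leukocyte gene. In whole skin, fewer cells of a type and less RNA per cell cannot be told apart.

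The reference itself differed between the groups. The 18S Ct lay between 6.73 and 7.38 in P+eMSC, with a median of 6.94, and between 6.26 and 6.83 in sham, with a median of 6.60. The shift of 0.32 cycles (interval 0.092 to 0.68) had an exact p of 0.0140. A later 18S Ct raises the level of every gene of a mouse by the same amount, and the directions that turn without the reference gene are named beside the genes. A level without a reference gene carries differences in RNA input, so such a turn cannot separate input from expression.

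No target gene was called at 6 weeks. Of the 54 genes, 0 were higher and 0 lower in P+eMSC than in sham (0% of the genes tested in each direction), 0 had an unadjusted p below 0.05 by the same test, by limma or by an exact permutation test of the mean, and the smallest exact p was 0.0649 (*Ccl4*) with a smallest adjusted p of 1 (Benjamini-Hochberg). The groups overlapped in all 54 genes and all 54 intervals covered 0. Shifts ranged from -0.65 (*Tgfb2*) to 2.12 (*Ccl4*) around a median of 0.20, 40 of them above 0 and 14 below. This split depended on the reference and on single mice. It was 17 above and 37 below (median -0.13) without a reference gene, 28 and 26 (median 0.028) with the panel median of the mouse as reference, and 24 and 30 (median -0.057) without P+eMSC mouse 2351. In 9 genes it was above 1, and in 0 below -1. It lay within the SD of both groups in 51 genes, and in *Tgfb2*, *Mmp9* and *Timp1* it was above the SD of the sham mice but not that of the P+eMSC mice. The intervals show what these mice can bound. For 23 genes the interval stayed within 2 (log2) on either side of 0, for 0 genes within 1, and the intervals were from 1.76 to 10.6 wide with a median of 3.87. A p above the threshold does not show that seeded mesh and sham skin express these genes alike.

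**Figure D1:**
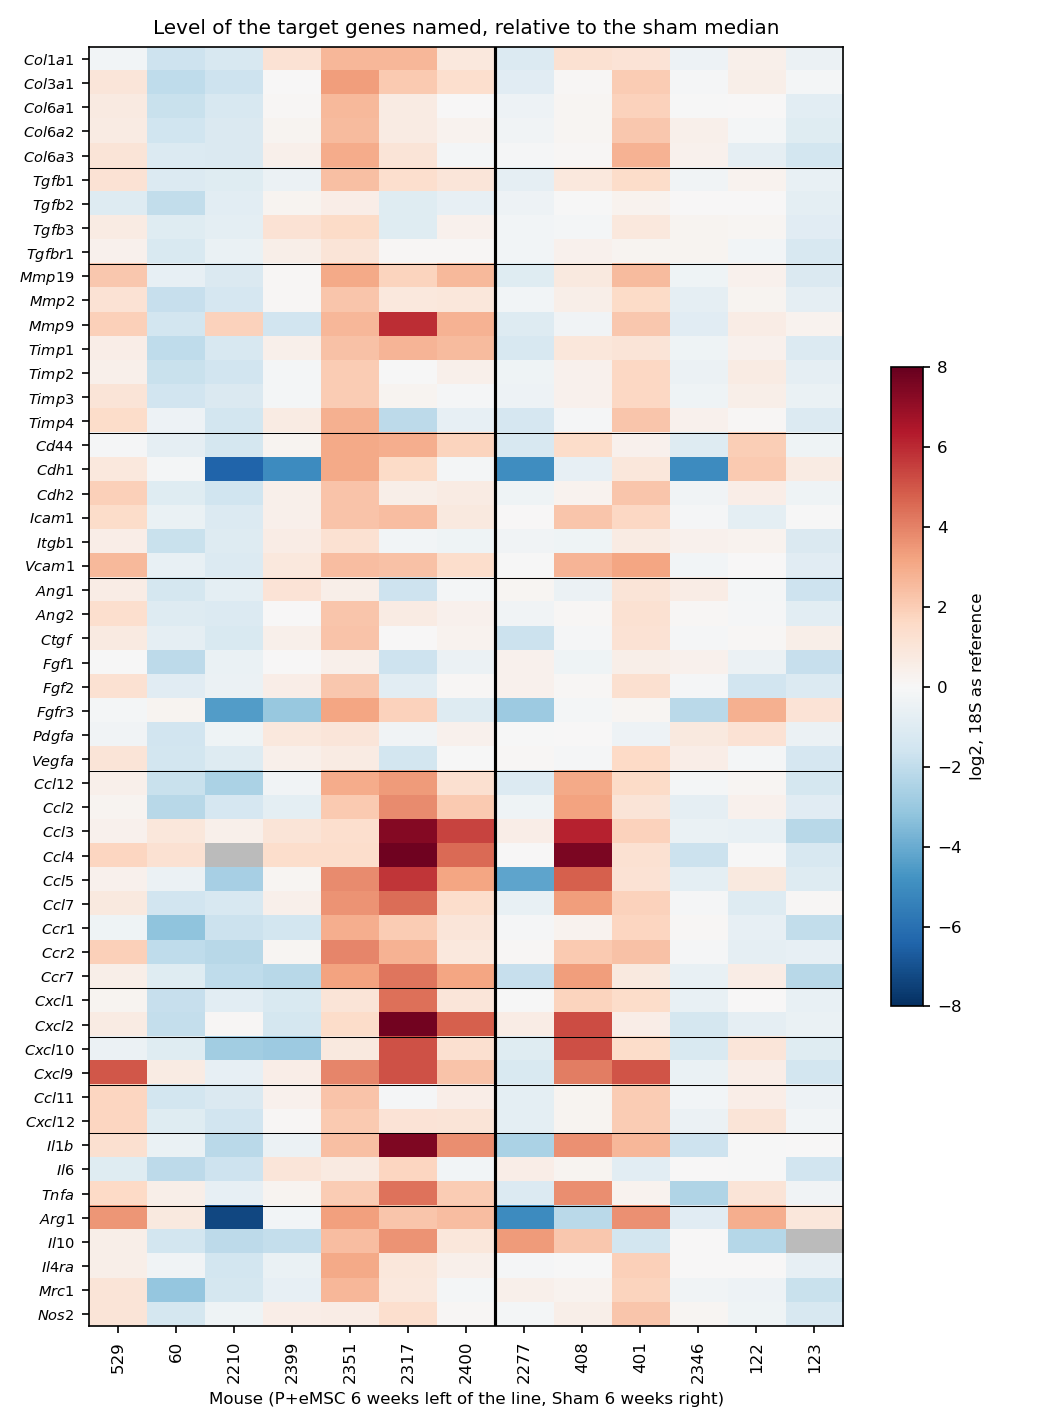
Level of 53 of the 54 target genes (rows, in the order of the gene groups, separated by thin lines) in each of the 13 mice (columns, 7 P+eMSC mice left of the thick line and 6 sham mice right of it), as log2 relative to the sham median with 18S as reference. Red is above and blue below the sham median, and grey is undetected. Columns 60 and 2210 are blue and columns 2351 and 2317 red over most genes, and the deepest reds of *Ccl3*, *Ccl4*, *Cxcl2* and *Il1b* lie in mouse 2317.

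*Col1a1* and *Col3a1* encode the fibrillar collagens of the dermis and of scar, and *Col6a1*, *Col6a2* and *Col6a3* the chains of collagen VI, which forms a filament network around cells. All 5 had a shift above 0 (median 0.33, against 0.20 over all 54 genes) and 0 of 5 were called. *Col3a1* had the largest shift of the group. Its relative level in the P+eMSC mice was lowest at -2.05, had a median of 0.97 and reached 3.37, while the sham mice lay between -0.93 and 2.03. Mice 2351 and 2317 were above every sham mouse and mice 60 and 2210 below every one, so the seeded group enclosed the sham group on both sides. The shift was 0.69 (interval -1.97 to 2.24, 1.62-fold, exact p = 0.628). *Col1a1* showed the same arrangement, from -1.68 to 2.69 around a median of 0.87 in P+eMSC and from -1.07 to 1.24 in sham, with a shift of 0.37 (interval -1.45 to 2.29, exact p = 0.731). The SD of *Col1a1* was 1.74 in P+eMSC and 0.93 in sham. The collagen VI chains had shifts of 0.091 (*Col6a1*), 0.23 (*Col6a2*) and 0.33 (*Col6a3*), and their highest value among the 13 mice was that of mouse 2351. Without the reference gene the shifts of *Col1a1* and of the collagen VI chains turned below 0, and that of *Col3a1* did not.

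TGF-beta drives fibroblasts to make matrix, and *Tgfbr1* encodes its type I receptor. Of the 4 genes for the ligands and this receptor, 3 had a shift above 0, 1 had a shift below 0 and 0 were called (median 0.19). *Tgfb2* was the gene of the whole panel with the lowest shift. Its P+eMSC mice lay at -1.97 at the lowest, -0.85 at the median and 0.54 at the highest, and the sham mice kept a narrow range from -0.77 to 0.28. Of the 7 P+eMSC mice, 4 were below the lowest sham mouse and 1, mouse 2351, was above the highest. The shift was -0.65 (interval -1.26 to 0.50, 0.64-fold, exact p = 0.234). It stayed below 0 under every alternative, and without the reference gene it was -0.86 with an exact p of 0.0350, which is past the threshold (smallest adjusted p 1). Without a reference gene, a lower RNA input and a lower expression cannot be told apart. *Tgfb1* (0.22), *Tgfb3* (0.19) and *Tgfbr1* (0.19) had shifts on the other side of 0, which turned below 0 without the reference gene. *Tgfbr1* had one of the narrowest intervals of the panel, from -0.76 to 1.26.

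Among the matrix proteases and their inhibitors, *Mmp2* and *Mmp9* encode gelatinases and *Mmp19* another metalloproteinase, and *Timp1* to *Timp4* their tissue inhibitors. Of the 8 genes of this group, 4 had a shift above 0, 4 below 0 and 0 were called (median 0.16). *Mmp9*, which neutrophils and macrophages carry, had the second largest shift of the panel. Its relative level in P+eMSC was -1.54 at the lowest, 1.93 at the median and 5.90 at the highest, against -1.05 to 2.15 in sham. Mice 2317, 2400 and 2351 lay above every sham mouse, mice 2399 and 60 below every one. The shift was 2.06 (interval -1.27 to 3.75, 4.17-fold, exact p = 0.366). *Timp1*, an inhibitor of *Mmp9*'s product, was arranged in the same way with mice 2317, 2400 and 2351 between 2.34 and 2.75 and a highest sham value of 1.02, and its shift was 1.37 (interval -1.64 to 3.11, exact p = 0.534). *Mmp19* had a shift of 1.04 (interval -0.99 to 3.17, exact p = 0.445) and *Mmp2* one of 0.53. The shifts of *Mmp2*, *Mmp9*, *Mmp19* and *Timp1* were above 0 under every alternative, but their size was not kept. With the panel median as reference they were 0.058, 1.42, 0.69 and 0.43 in this order. Without mouse 2351 they were 0.072, 1.61, 0.48 and 0.46. *Timp2* (-0.24), *Timp3* (-0.23) and *Timp4* (-0.21) had shifts below 0, and each of these changed sign under at least 1 alternative.

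All 6 genes of cell adhesion receptors had a shift above 0 (median 0.14) and 0 of 6 were called. *Cd44*, the hyaluronan receptor of leukocytes and stromal cells, had the largest shift. Its P+eMSC values ran from -1.40 through a median of 0.23 to 3.04, and its sham values from -1.31 to 1.94. Mice 2351 and 2317 stood above every sham mouse. The shift was 0.58 (interval -1.71 to 3.12, exact p = 0.628). *Icam1* (0.43) and *Vcam1* (0.079), through which leukocytes attach to endothelium, *Itgb1* (0.015), the beta 1 integrin chain that binds matrix, and *Cdh2* (0.18), or N-cadherin, had smaller shifts. Without the reference gene the shifts of these 4 genes and of *Cdh1* turned below 0, and that of *Cd44* did not. *Cdh1* encodes E-cadherin of epithelial junctions and had the widest interval of the panel, from -5.69 to 4.89 around a shift of 0.092 (exact p = 1). P+eMSC mice 2210 and 2399 had relative levels of -6.40 and -5.06, and sham mice 2277 and 2346 had -4.98 and -5.05, whereas the other 9 mice lay between -0.63 and 3.04. The same 4 mice were the lowest for the epithelial receptor gene *Fgfr3*, at -4.50, -3.01, -2.92 and -2.14, so both groups held mice with a low level of each of these genes.

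Of the 8 genes of angiogenic and mesenchymal growth factors and their receptor, 3 had a shift above 0, 5 below 0 and 0 were called (median -0.090). *Fgf2*, a mitogen of endothelial cells and fibroblasts, had the largest shift. It reached from -0.92 through a median of 0.12 to 2.18 in P+eMSC and from -1.53 to 1.30 in sham, so that 6 of 7 P+eMSC mice lay inside the sham range. The shift was 0.32 (interval -1.0 to 2.03, 1.25-fold, exact p = 0.534). *Fgf1* had a shift of -0.30 (interval -1.76 to 0.72, exact p = 0.366), with 5 of 7 P+eMSC mice below the sham median. *Vegfa*, the main driver of capillary sprouting, lay between -1.45 and 1.02 in P+eMSC and between -1.31 and 1.57 in sham, and its shift was -0.14 (interval -1.53 to 0.94, exact p = 0.731). *Ang1* (-0.042), *Ang2* (0.28), *Ctgf* (0.21), *Pdgfa* (-0.22) and *Fgfr3* (-0.22) completed the group. The shifts of *Fgf2* and *Ctgf* turned below 0 without the reference gene. The shift of *Pdgfa*, a growth factor for pericytes and fibroblasts, was bounded from above at 0.86. For *Vegfa*, *Fgf1* and *Pdgfa* the interval thus left out a doubling, but it did not leave out a halving.

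**Figure D2:**
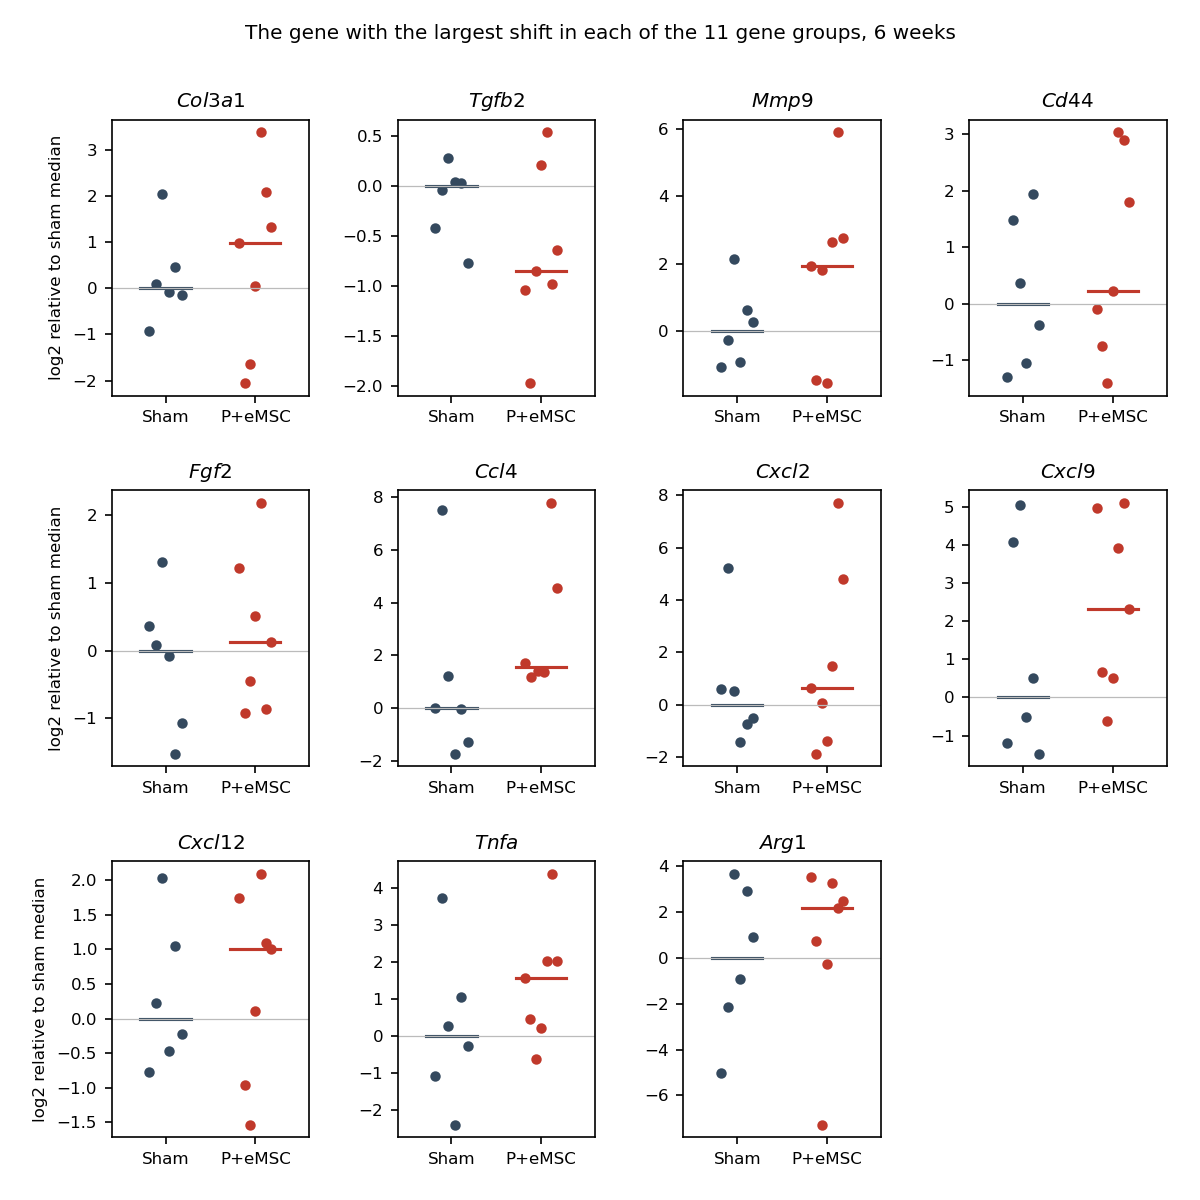
Level of the gene with the largest absolute shift in each of the 11 gene groups, as log2 relative to the sham median (18S as reference, one scale per panel). Each point is 1 mouse and each bar the median of the group (6 sham mice, 7 P+eMSC mice, 6 for *Ccl4*). The groups overlapped in all 11 genes, and in *Ccl4* sham mouse 408 stood at 7.50 among sham mice that otherwise reached 1.21.

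Among the CC chemokines and their receptors, *Ccl2*, *Ccl7* and *Ccl12* attract monocytes through *Ccr2*, *Ccl3*, *Ccl4* and *Ccl5* are made by activated leukocytes and act on monocytes, macrophages and T cells, *Ccr1* is a receptor of *Ccl3* and *Ccl5*, and *Ccr7* guides dendritic and T cells to lymph nodes. Of the 9 genes, 8 had a shift above 0, 1 below 0 and 0 were called (median 0.59). *Ccl4* had the largest shift and the smallest p of the panel. Its 6 detected P+eMSC values were 1.73 in mouse 529, 1.19 in mouse 60, 1.43 in mouse 2399, 1.38 in mouse 2351, 7.76 in mouse 2317 and 4.56 in mouse 2400, and the undetected mouse 2210 has no place on this scale. The 6 sham values were 0.033 in mouse 2277, 7.50 in mouse 408, 1.21 in mouse 401, -1.71 in mouse 2346, -0.033 in mouse 122 and -1.28 in mouse 123. Each detected P+eMSC mouse was above at least 4 of the 6 sham mice, and sham mouse 408 was above all but 1 of them. The shift was 2.12 (interval -0.023 to 6.27, 4.34-fold, exact p = 0.0649). Without sham mouse 408 it was 2.81 with an exact p of 0.00866, the only call when each of the 13 mice was left out in turn, and the smallest adjusted p was then 0.468. With the undetected mouse 2210 placed just below the lowest value the shift was 1.44 and the exact p 0.234.

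*Ccl3*, a chemokine closely related to *Ccl4*, was above the sham median in 7 of 7 P+eMSC mice. They lay at 0.37 at the lowest, 1.05 at the median and 7.33 at the highest, and the sham mice between -2.19 and 6.17. Here too the highest values belonged to P+eMSC mice 2317 (7.33) and 2400 (5.38) and to sham mouse 408 (6.17). The shift was 1.29 (interval -1.40 to 5.89, 2.44-fold, exact p = 0.295). *Ccl5* had a shift of 1.13 (interval -1.89 to 4.75, exact p = 0.534), and it ranged from -2.65 to 5.73 in P+eMSC and from -4.22 to 4.77 in sham. The monocyte chemokines had smaller shifts of -0.13 (*Ccl2*), 0.59 (*Ccl7*) and 0.065 (*Ccl12*), with exact p from 0.731 to 1. The receptor shifts were 0.010 (*Ccr1*), 0.61 (*Ccr2*) and 0.53 (*Ccr7*). Those of *Ccl12*, *Ccr1* and *Ccr2* turned below 0 without the reference gene.

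*Cxcl1* and *Cxcl2* recruit neutrophils, *Cxcl9* and *Cxcl10* are induced by interferon, *Cxcl12* is made by stromal cells and holds stem and progenitor cells, and *Ccl11* attracts eosinophils. Of the neutrophil chemokines, 1 had a shift above 0 and 1 below 0, and 0 of 2 were called. *Cxcl2* lay at -1.88 at the lowest, 0.64 at the median and 7.70 at the highest in P+eMSC and between -1.44 and 5.20 in sham. Mouse 2317 (7.70), mouse 2400 (4.80) and sham mouse 408 (5.20) stood apart from the other 10 mice, which did not exceed 1.47. The shift was 0.70 (interval -2.41 to 5.55, exact p = 0.628). *Cxcl1* was also highest in mouse 2317 (4.38), followed by sham mouse 408 (1.78), and its shift was -0.44 (interval -1.85 to 1.64, exact p = 0.731).

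Mouse 2317 was the highest of the 13 in 15 of the 52 genes detected in every mouse, *Cxcl1* and *Cxcl2* among them. The promoter windows of this pair are shown as an example. They lie on the plus strand of mouse chromosome 5 (GRCm38.p6, sequences from RefSeq), *Cxcl1* at chr5:90890995-90891294 and *Cxcl2* at chr5:90903649-90903948, each from 250 bases before the transcription start to 50 bases after it. Capitals mark matches to the kappa B consensus, the motif of NF-kappa B, which were found on both strands at overlapping positions.
Cxcl1: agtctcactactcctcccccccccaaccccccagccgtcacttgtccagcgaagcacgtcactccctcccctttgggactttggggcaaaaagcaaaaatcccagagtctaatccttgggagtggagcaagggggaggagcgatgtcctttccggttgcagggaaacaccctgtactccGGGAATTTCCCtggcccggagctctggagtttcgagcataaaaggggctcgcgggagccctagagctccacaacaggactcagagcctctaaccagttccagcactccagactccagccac
Cxcl2: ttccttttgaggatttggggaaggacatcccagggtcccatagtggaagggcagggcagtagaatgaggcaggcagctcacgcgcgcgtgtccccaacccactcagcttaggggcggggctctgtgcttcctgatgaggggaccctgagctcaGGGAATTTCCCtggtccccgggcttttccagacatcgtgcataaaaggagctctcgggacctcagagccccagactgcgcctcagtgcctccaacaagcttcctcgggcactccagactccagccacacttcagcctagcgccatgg

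The first match started 71 bases before the transcription start in *Cxcl1* and 97 bases before it in *Cxcl2*, and the capital letters were the same in both. A match to the consensus on either strand was found in 11 of the 32 target genes with a promoter window in the table (34.4%) and in 9.55% of the windows of all 27025 genes. Other genes highest in mouse 2317 held no match in their window (*Ccl3*, *Il1b*, *Tnfa*, *Cxcl9*, *Ccl12*, *Icam1* and *Timp1*), whereas *Il6* did. The rest, such as *Ccl4* and *Mmp9*, had no window in the table. A match is a run of letters and was not tested as a binding site here, nor was its relation to the values of mouse 2317.

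Of the interferon-inducible pair, *Cxcl9* had the larger shift. Its P+eMSC mice ran from -0.63 through a median of 2.31 to 5.09 and its sham mice from -1.48 to 5.03, and 6 of 7 P+eMSC mice were above the sham median. Sham mice 401 (5.03) and 408 (4.08) nonetheless stood beside P+eMSC mice 2317 (5.09), 529 (4.98) and 2351 (3.91). The shift was 1.10 (interval -2.72 to 5.39, exact p = 0.295). *Cxcl10* was as high in mouse 2317 (5.08) as in sham mouse 408 (5.15), and its shift was -0.42 (interval -4.23 to 2.21, exact p = 0.534). *Cxcl12* lay between -1.53 and 2.09 in P+eMSC, with a median of 1.01, and between -0.77 and 2.03 in sham. Its shift was 0.20 (interval -1.31 to 1.87, exact p = 0.836) and that of *Ccl11* was 0.13 (exact p = 0.945), so 0 of these 4 genes were called. Both *Cxcl12* and *Ccl11* turned below 0 without the reference gene.

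The 3 inflammatory cytokine genes all had a shift above 0 (median 1.17) and 0 were called. *Tnfa*, a cytokine of activated macrophages, lay at -0.63 at the lowest, 1.58 at the median and 4.37 at the highest in P+eMSC and between -2.39 and 3.73 in sham. It was above the sham median in 6 of 7 P+eMSC mice, and mouse 2317 was the only one above sham mouse 408. The shift was 1.29 (interval -1.68 to 3.96, 2.45-fold, exact p = 0.234). *Il1b* ran from -2.15 to 7.50 in P+eMSC and from -2.54 to 3.66 in sham, its highest values in mice 2317 (7.50) and 2400 (3.72), and the shift was 1.17 (interval -2.35 to 4.93, exact p = 0.628). *Il6*, which fibroblasts make as well, had a shift of 0.020 (interval -1.68 to 1.65, exact p = 1) and turned below 0 without the reference gene. It was also highest in mouse 2317 (1.69), but mouse 2400 had -0.24 and sham mouse 408 had 0.21.

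Of the genes of macrophage state, *Nos2* is the inducible nitric oxide synthase of classically activated macrophages, whereas *Arg1* (arginase 1), *Mrc1* (the mannose receptor) and *Il4ra* (the interleukin 4 receptor chain) belong to the alternatively activated state and *Il10* encodes an anti-inflammatory cytokine. Of the 5 genes, 4 had a shift above 0, 1 below 0 and 0 were called (median 0.31). *Arg1* had the largest shift. It lay at -7.27 at the lowest, 2.19 at the median and 3.53 at the highest in P+eMSC, and between -5.04 and 3.67 in sham. Mouse 2210 was far below the rest of its group. Sham mouse 2277 was the lowest of a widely spread sham group, at -5.04 against -2.13 in sham mouse 408. Both were among the mice with low *Cdh1* and *Fgfr3*. The other such mice, P+eMSC mouse 2399 and sham mouse 2346, had *Arg1* levels of -0.25 and -0.93. The shift was 0.97 (interval -3.17 to 5.41, exact p = 0.731). *Nos2* had a shift of 0.31 (interval -1.52 to 1.40), *Il4ra* one of 0.35 (interval -1.46 to 1.14), *Mrc1* one of -0.073 (interval -2.48 to 2.25) and *Il10* one of 0.19 (interval -3.59 to 3.18), with exact p from 0.731 to 1. Without the reference gene *Nos2*, *Il4ra* and *Il10* turned below 0.

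**Figure D3:**
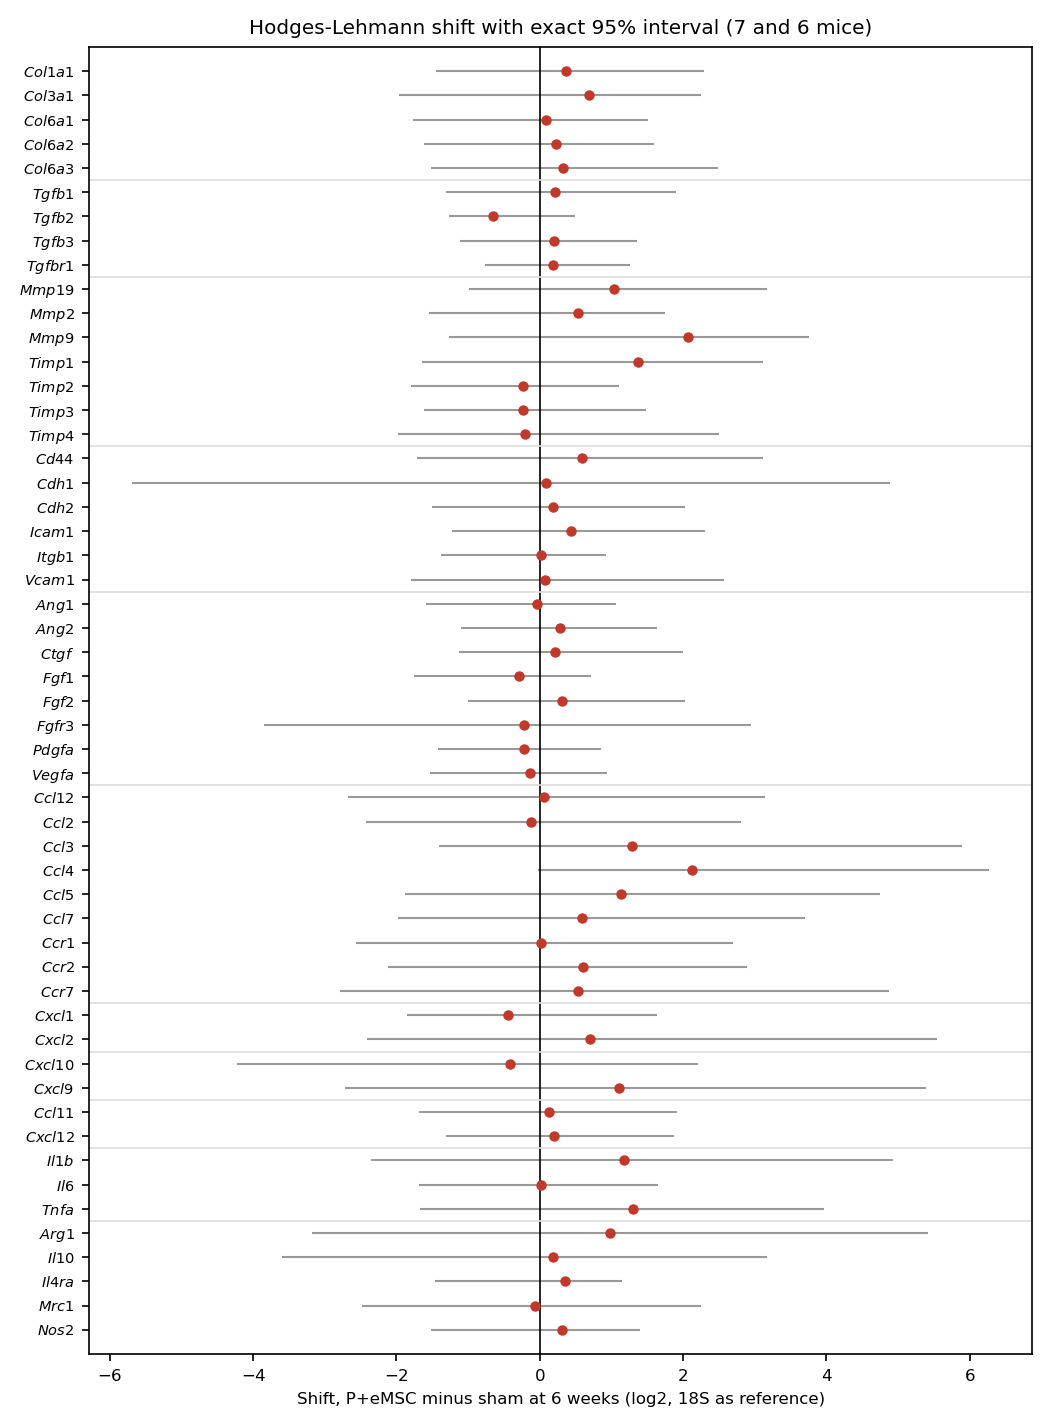
Hodges-Lehmann shift of 53 of the 54 target genes, P+eMSC minus sham at 6 weeks (point), with its exact 95% interval (line), in log2 units with 18S as reference (7 and 6 mice; 6 P+eMSC mice for *Ccl4*, 5 sham mice for *Il10*). All 53 lines cross 0, the line of *Ccl4* with a lower end of -0.023, and the widest is that of *Cdh1*.

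The P+eMSC mice were spread over a wider range than the sham mice in most genes. The SD of a gene was larger in P+eMSC than in sham in 45 of 54 genes, with a median SD of 1.57 and 1.11 and a median ratio of 1.34. The difference in spread was not tested. Over the 52 genes detected in all mice, the highest of the 13 values belonged to a P+eMSC mouse in 44 genes, the lowest in 42, and both in 34. For each of these genes 7 of the 13 values came from P+eMSC mice. Mouse 2351 was the highest of the 13 in 28 genes and mouse 2317 in 15, while mouse 60 was the lowest in 24 and mouse 2210 in 13. Mouse 2351 was above the sham median in 52 of 52 genes, mouse 529 in 43, mice 2317 and 2400 in 40 each, mouse 2399 in 35, mouse 60 in 5 and mouse 2210 in 3. The genes of the panel thus moved up or down together within a mouse, and the genes of 1 mouse share its 18S value.

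Averaged over the 52 genes, the P+eMSC mice lay at 0.52 ± 1.42 (SD, n = 7) relative to the sham median and the sham mice at 0.23 ± 0.98 (SD, n = 6). It was 2.26 in mouse 2351, 1.94 in mouse 2317, 1.07 in mouse 2400, 0.95 in mouse 529, -0.066 in mouse 2399, -1.14 in mouse 60 and -1.36 in mouse 2210. In the sham group it was 1.58 in mouse 401, 1.19 in mouse 408, 0.32 in mouse 122, -0.32 in mouse 2346, -0.70 in mouse 123 and -0.71 in mouse 2277. The shift of 0.50 (interval -1.46 to 1.93, exact p = 0.836) became -0.18 without mouse 2351 and likewise without mouse 2317, and -0.0040 (exact p = 1) without the reference gene.

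**Figure D4:**
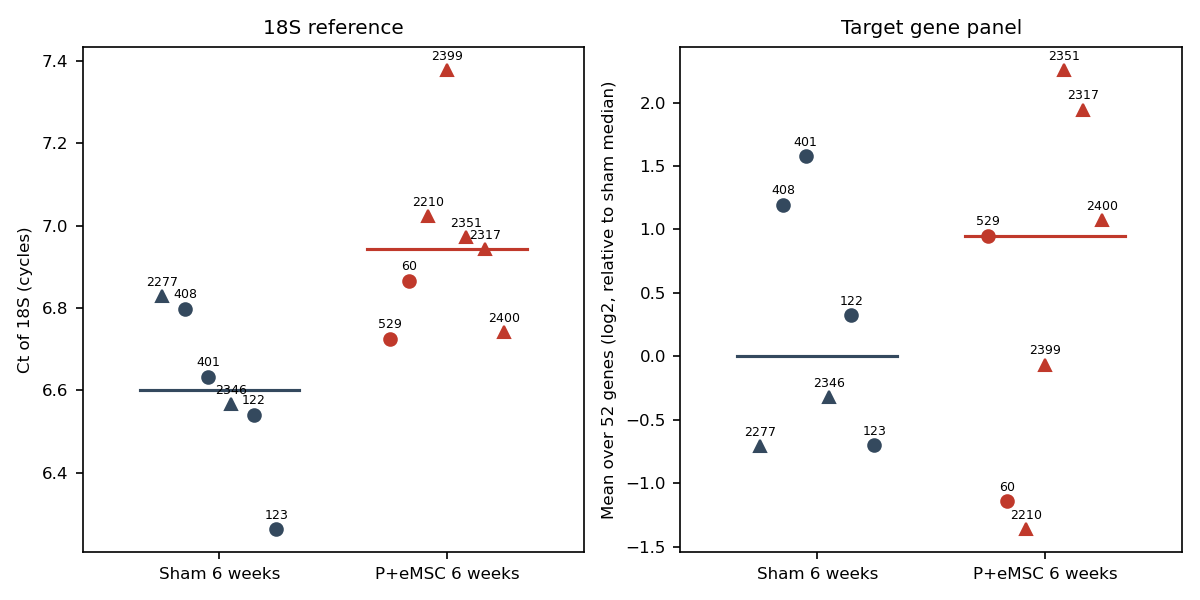
Ct of 18S (left, cycles) and mean level over the 52 target genes detected in all 13 mice (right, log2 relative to the sham median) in each mouse of the 2 groups, with the group median as a bar. Circles are mice numbered below 1000 and triangles mice numbered above 2000. On the left 5 of 7 P+eMSC mice have a later 18S Ct than every sham mouse, and on the right 2 P+eMSC mice lie above and 2 below all sham mice.

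The animal numbers in the labels fell into a series below 1000 and another above 2000, whose meaning was not stated. P+eMSC held 2 mice below 1000 and 5 above 2000, and sham held 4 and 2. Among the mice below 1000 the median shift over the 54 genes was -0.65, with 11 genes above 0 and 43 below, and among those above 2000 it was 0.98, with 44 above 0 and 10 below. These subsets cannot reach the threshold, since their smallest possible exact p is 0.133 and 0.0952. With all 13 mice permuted within the series, 0 of 54 genes were called, the median shift was 0.18 and the smallest p was 0.102. The 4 mice with low *Cdh1* and *Fgfr3* all had numbers above 2000.

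The same sham mice also served as the controls of the mesh without cells (P, 8 mice at 6 weeks), so the values below are set side by side and the 2 comparisons are not independent. P was lower than sham in 14 of 54 genes (25.9%) and higher in 0 (0%), with an adjusted p below 0.05 in 2, *Timp2* and *Timp3* (adjusted p = 0.0360, exact p = 0.00133 each). Of the 54 shifts of P, 43 were below 0 and 11 above, with a median of -0.83, so most of the panel lay lower. The count for P is given with 18S as the only reference, so its dependence on the reference is not shown here. The number of lower genes was between 12 and 18 when each P mouse was left out, and 12 without both mouse 2356 and mouse 52, the latter with most of the 32 undetected values of that group. Chosen on the P mice, these 14 genes had a median shift of -1.61 in P (from -2.54 to -0.84). In P+eMSC their shifts from the same sham mice had a median of -0.090 (from -0.65 to 0.21), 6 above 0 and 8 below. For *Vegfa* the shift was -2.54 in P (exact p = 0.00799) and -0.14 in P+eMSC. For *Tgfb3* it was -2.07 in P (exact p = 0.00799) and 0.19 in P+eMSC, for *Timp3* -1.84 and -0.23, for *Timp2* -1.70 and -0.24, for *Itgb1* -1.64 (exact p = 0.00466) and 0.015, and for *Ccl11* -1.48 (exact p = 0.00799) and 0.13. *Tgfb2* was the member with the lowest shift in P+eMSC, at -0.65, and had -1.31 in P (exact p = 0.00816). The 95% interval in P+eMSC contained the P shift for *Timp2* (-1.79 to 1.10) and *Ccl11* (-1.68 to 1.92). It also did so for *Ang1*, *Fgf1*, *Ctgf*, *Timp4* and *Cdh2*. It did not for *Vegfa*, *Tgfb2*, *Tgfb3*, *Tgfbr1*, *Timp3*, *Itgb1* and *Pdgfa*. The P shift has a spread of its own, which is left out here, so this is not a test of P+eMSC against P. Set directly against P over all 54 genes, P+eMSC was higher at the threshold in 10 (18.5%) and lower in 0 (0%), with 0 at an adjusted p below 0.05 (the smallest being 0.158). The 10 genes held 8 of these 14, which is given as a description, since the 14 were chosen on the same P mice. The 8 were *Vegfa*, *Tgfb3*, *Tgfbr1*, *Timp3*, *Itgb1*, *Ccl11*, *Ctgf* and *Pdgfa*. Against P, *Timp2* (exact p = 0.0541), *Tgfb2* (exact p = 0.128), *Timp4*, *Ang1*, *Fgf1* and *Cdh2* were not called.

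**Figure D5:**
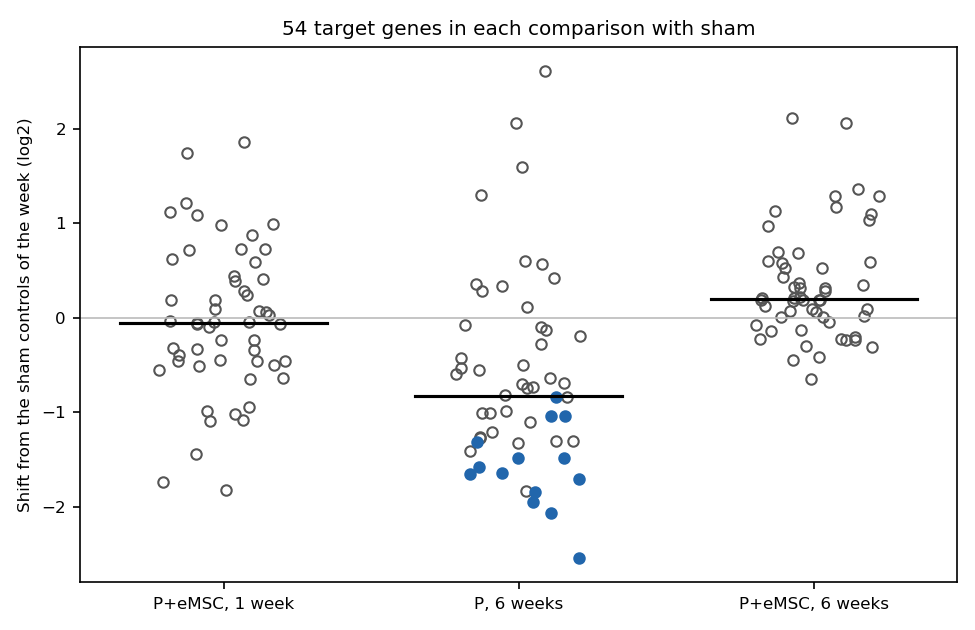
Hodges-Lehmann shift of each of the 54 target genes from the sham mice of the same week (vertical axis, log2, 18S as reference) for P+eMSC at 1 week, P at 6 weeks and P+eMSC at 6 weeks. Each circle is 1 gene, filled where it was called by the exact Mann-Whitney U test, and each bar is the median over the genes (-0.049, -0.83 and 0.20). The 14 filled circles all belong to P, and the 6 week columns share their sham mice.

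At 1 week, P+eMSC (7 mice) and sham (7 mice) also differed in 0 of 54 genes in either direction (0% of genes tested, 0 with an unadjusted p below 0.05, smallest exact p 0.259), with 24 shifts above 0, 30 below 0 and a median of -0.049. Whether the difference from sham itself changed from 1 to 6 weeks was tested as the interaction of treatment and week in limma, with all 41 mice in the fit. It called 0 of 54 genes (0%), 0 at an unadjusted p below 0.05, and the smallest p was 0.150 with a smallest adjusted p of 0.999. Its median was 0.38, and it was above 0, that is toward a higher level relative to sham at 6 weeks than at 1 week, in 42 genes and below 0 in 12. It was largest for *Mmp9*, at 2.66 with a standard error of 1.81, followed by 1.72 (standard error 2.35) for *Ccl3*, 1.70 (standard error 2.24) for *Arg1*, 1.44 (standard error 1.70) for *Cd44* and 1.42 (standard error 1.44) for *Mmp19*. The standard errors of the 54 genes were between 0.85 and 2.68. With the panel median of each mouse as the reference, 27 genes were above 0 and the median was 0.036, and without sham mouse 2269 of 1 week 26 genes were above 0 with a median of -0.0090.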

How the data were processed

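Expression of 54 target genes and 18S was measured in total RNA of skin from 41 mice, of which the 13 labelled P+eMSC or sham at 6 weeks were compared. The RNA was extracted with RNeasy kits, reverse transcribed with Superscript III, preamplified over 14 cycles with pooled TaqMan assays and run on a Fluidigm dynamic array. The Ct values given by the Fluidigm software were deposited without normalization, 1 column per mouse. A second deposited table, of fold changes, gave no value reported here. Preamplification and a single reference gene carry any unevenness of input or amplification into every gene of a mouse.

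Each level was the 18S Ct minus the gene Ct, and a Ct of 999 or no value was taken as undetected and left out. Groups and animal numbers came from the labels. Genes with at least 4 values per group were tested with an exact Mann-Whitney U test (two-sided, all splits of the mice enumerated) and called at p = 0.0513 or below, with Benjamini-Hochberg adjusted p-values over 54 genes. The methods name a Mann-Whitney U test and this threshold for P against P+eMSC. There, sham served for the fold changes, and no test against sham is described. The interaction with week was fitted with limma over 6 groups, called at an adjusted p below 0.05. The tests were checked on simulated data. A Ct has no read depth and hence no counting interval. The genes and gene groups were chosen with earlier results of these data known. Counts cover all 54 target genes, of which 1 is not reported by name here and is not drawn among the labelled genes. Any other target gene could be named, and values per mouse were given for the gene with the largest absolute shift of each of the 11 groups. The single mice singled out and the promoter pair were chosen after their values had been seen and carry no test.

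The alternatives were the panel median in place of 18S, undetected values set 0.01 below the lowest, a median Ct limit of 25, thresholds of 0.05 on the p and on the adjusted p, a limma fit, an exact test that permutes the difference of means, one that permutes mice within their number series, no reference gene (added after the data had been seen) and leaving out each mouse. Of the target names, 51 matched RefSeq (GRCm38.p6) as symbols and 3 as synonyms, and 32 genes had a promoter window of 300 bases in the table. The work was done with limma 3.58.1 in R 4.3.3 and with scipy 1.17.1, pandas 2.3.3, numpy 2.4.6 and matplotlib 3.10.9 in Python 3.11.15.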

Additional observations from a re-analysis of the deposited data

Results flagged for a closer look

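Among 112 groups of values (each gene and each summary value in the P+eMSC and in the sham mice at 6 weeks), 6 held a mouse whose gap to the nearest other mouse was a larger share of the group's range than Dixon's 95% critical value allows. Chance gives about 1 in 20 such groups, which is close to the share found here. Levels are log2 relative to the sham median. In the sham group, mouse 408 was the highest for *Ccl4*, at 7.50 against 1.21 in the nearest mouse (0.683 of the range), and for *Cxcl2*, at 5.20 against 0.59 (0.695 of the range). Without this mouse *Ccl4* was called higher in P+eMSC (shift 2.81, exact p = 0.00866), and *Cxcl2* was not called. Sham mouse 401 was the highest for *Cdh2*, at 2.19 against 0.55 (0.649 of the range), and for *Il4ra*, at 1.93 against 0.061 (0.716 of the range). Sham mouse 123 was the lowest for *Tgfbr1*, at -1.26 against -0.22 (0.646 of the range). In the P+eMSC group, mouse 2210 was the lowest for *Arg1*, at -7.27 against -0.25 (0.651 of the range). Their causes were not tested.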

How the results depend on the processing

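The count of 0 higher and 0 lower genes of 54 was also obtained with each mouse referred to its own panel median, with undetected values set below the lowest, with a Ct limit, with p below 0.05 or an adjusted p below 0.05, with limma, with the exact permutation test of the mean and within the animal number series. It moved to 1 lower gene (*Tgfb2*, -0.86) with no reference gene, a setting added after the data had been seen, and, leaving out each mouse in turn, the number of higher genes ranged from 0 to 1 (*Ccl4*, without sham mouse 408). Leaving out each mouse, the shift of the panel mean ranged from -0.18 to 0.66, and with no reference gene it was -0.0040. The interaction with week gave 0 genes under each alternative run. An intended comparison with *Gapdh* as the reference was not run, because *Gapdh* is not among the genes analysed here. No paired analysis was possible because the groups share no replicate numbers.

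The direction of single, uncalled genes depended on the reference and on single mice, and the cause was not tested. With the panel median, 14 shifts took the other sign: *Col6a1* -0.15, *Col6a2* -0.13, *Timp4* 0.038, *Cdh1* -0.31, *Cdh2* -0.00072, *Icam1* -0.0035, *Itgb1* -0.29, *Ccl12* -0.34, *Ccr1* -0.084, *Ccl11* -0.079, *Cxcl12* -0.0019, *Il6* -0.16, *Il4ra* -0.080 and *Nos2* -0.10. With limma and with the difference of means, 6 did so: *Timp4* 0.034, *Itgb1* -0.073, *Ccl2* 0.10, *Ccr1* -0.028, *Cxcl1* 0.043 and *Il10* -0.056. Within the number series 8 did so: *Timp2* 0.12, *Timp3* 0.26, *Timp4* 0.13, *Itgb1* -0.10, *Ccr1* -0.94, *Ccr7* -0.14, *Il6* -0.42 and *Il10* -0.42. With no reference gene 23 did so: *Col1a1* -0.013, *Col6a1* -0.15, *Col6a2* -0.075, *Col6a3* -0.085, *Tgfb1* -0.055, *Tgfb3* -0.13, *Tgfbr1* -0.13, *Cdh1* -0.23, *Cdh2* -0.20, *Icam1* -0.081, *Itgb1* -0.39, *Vcam1* -0.19, *Ctgf* -0.25, *Fgf2* -0.15, *Ccl12* -0.13, *Ccr1* -0.54, *Ccr2* -0.029, *Ccl11* -0.37, *Cxcl12* -0.23, *Il6* -0.18, *Il10* -0.29, *Il4ra* -0.027 and *Nos2* -0.0078. Leaving out each mouse, 27 genes changed sign, over the ranges -0.043 to 0.49 (*Col6a1*), -0.021 to 0.46 (*Col6a2*), -0.13 to 0.58 (*Tgfb1*), -0.087 to 0.49 (*Tgfb3*), -0.57 to 0.14 (*Timp2*), -0.57 to 0.26 (*Timp3*), -0.54 to 0.51 (*Timp4*), -0.34 to 0.53 (*Cdh1*), -0.11 to 0.14 (*Itgb1*), -0.38 to 1.10 (*Vcam1*), -0.43 to 0.058 (*Ang1*), -0.016 to 0.34 (*Ctgf*), -0.87 to 0.18 (*Fgfr3*), -0.30 to 0.11 (*Pdgfa*), -0.89 to 0.029 (*Vegfa*), -0.33 to 0.81 (*Ccl12*), -0.56 to 0.58 (*Ccl2*), -0.0058 to 1.03 (*Ccl7*), -0.69 to 0.42 (*Ccr1*), -0.054 to 0.85 (*Ccr2*), -0.11 to 1.24 (*Ccr7*), -0.24 to 0.33 (*Ccl11*), -0.075 to 0.79 (*Cxcl12*), -0.24 to 0.52 (*Il6*), -0.74 to 0.45 (*Il10*), -0.23 to 0.42 (*Il4ra*) and -0.49 to 0.40 (*Mrc1*). The sign was kept under every alternative run by 19 genes.

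A Ct has no read depth, so the number of mice limits the precision. The part of the later 18S Ct of the P+eMSC mice and of the uneven number series in the shifts was not tested.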
